A study of Mus musculus with 18 samples.

Results

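The 10 genes described here carry out or control fatty acid synthesis in the liver: Srebf1, Fasn, Acaca, Acacb, Acly, Scd1, Elovl6, Me1, Mlxipl and Insig2. They were chosen by name, as synthesis enzymes, their main transcription factors and a regulator of SREBP processing, with earlier results of these data known. All 10 were found by symbol among the 47729 gene identifiers of the deposited table, and all 10 were among the 12686 genes with a mean normalized count of at least 10 over the 18 columns, which were the genes tested.

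The table has 9 columns headed IR, taken here as livers after ischemia-reperfusion injury, in which the blood supply is interrupted and then restored. The other 9 columns are headed W and were read as sham surgery, because 9 sham samples remain once the IR columns are matched and only 6 samples are wild type. The labels place 3 wild-type, 3 Il22-/- and 3 Il22bp-/- samples in each surgery. Hepatocytes respond to the cytokine IL-22, and IL-22BP is a soluble protein that binds and blocks it. No header gives a genotype, so each group mixes the 3 genotypes, the knockouts could not be checked in their own genes, and no genotype comparison was made. The animals' sex, age and strain, the length of ischemia and reperfusion, feeding and the hour of collection are not stated in the labels, nor is it stated whether samples came from separate mice. The p-values therefore measure the spread between these samples.

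Hepatocytes turn surplus carbohydrate into fatty acids. ATP-citrate lyase makes cytosolic acetyl-CoA from citrate, acetyl-CoA carboxylase makes malonyl-CoA, fatty acid synthase builds palmitate with NADPH from malic enzyme and the pentose phosphate pathway, and elongases and desaturases then modify the chain. The genes are driven by SREBP-1, which insulin induces, and by ChREBP, which responds to glucose metabolites. SREBP precursors sit in the endoplasmic reticulum with the escort SCAP, and INSIG proteins hold that complex back from the Golgi, where the active factor is cut free.

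Promoter sequences were available for 9 of the 10 genes, with 15 transcription starts in all, from RefSeq on GRCm38.p6. Each spans 250 bases before to 50 bases after a start and is written 5′ to 3′ on the gene's strand. Capitals mark matches, on either strand, to 4 motifs. The SRE-like core, searched as TCACCC, is the short element around which SREBP sites are built. The E-box, searched as CACGTG, is the element on which USF and ChREBP sites are built. The CCAAT box was searched as CCAAT and is bound by the factor NF-Y. The GC box, which Sp1 binds, was searched as GGGCGG. Starts of the 4 genes that hold the SRE-like core are shown: the transcription factor gene itself, 2 enzymes with lower levels after IR, and the gene that was higher. Elovl6 is shown beside them as the member with the largest difference, and it holds none of the 4 motifs.
Srebf1, chr11:60210422-60210721, minus strand: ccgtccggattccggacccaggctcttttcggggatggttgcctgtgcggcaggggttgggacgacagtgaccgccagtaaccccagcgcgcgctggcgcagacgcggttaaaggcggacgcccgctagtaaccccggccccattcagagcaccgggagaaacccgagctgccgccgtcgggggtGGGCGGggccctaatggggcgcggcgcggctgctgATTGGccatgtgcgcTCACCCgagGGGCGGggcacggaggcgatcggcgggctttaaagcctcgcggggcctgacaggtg
Fasn, chr11:120824498-120824797, minus strand: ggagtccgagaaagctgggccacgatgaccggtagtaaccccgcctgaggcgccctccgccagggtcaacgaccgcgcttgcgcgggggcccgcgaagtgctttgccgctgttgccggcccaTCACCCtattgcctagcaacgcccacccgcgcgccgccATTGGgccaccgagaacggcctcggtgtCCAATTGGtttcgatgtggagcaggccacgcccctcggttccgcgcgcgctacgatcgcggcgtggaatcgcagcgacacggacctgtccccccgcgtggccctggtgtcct
Me1, chr9:86695865-86696164, minus strand: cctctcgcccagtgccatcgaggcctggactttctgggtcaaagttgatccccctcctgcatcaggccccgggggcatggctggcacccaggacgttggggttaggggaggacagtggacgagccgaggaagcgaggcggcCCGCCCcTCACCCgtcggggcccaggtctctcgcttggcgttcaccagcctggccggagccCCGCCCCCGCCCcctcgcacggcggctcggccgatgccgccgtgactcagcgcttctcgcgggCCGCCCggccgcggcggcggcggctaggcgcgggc
Insig2, chr1:121327975-121328274, minus strand: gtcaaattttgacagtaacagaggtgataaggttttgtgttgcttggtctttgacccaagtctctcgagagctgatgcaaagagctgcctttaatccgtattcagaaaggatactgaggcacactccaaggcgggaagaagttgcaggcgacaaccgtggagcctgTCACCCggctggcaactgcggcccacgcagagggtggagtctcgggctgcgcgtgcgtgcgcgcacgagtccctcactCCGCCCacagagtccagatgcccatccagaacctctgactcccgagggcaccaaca
Elovl6, chr3:129532136-129532435, plus strand: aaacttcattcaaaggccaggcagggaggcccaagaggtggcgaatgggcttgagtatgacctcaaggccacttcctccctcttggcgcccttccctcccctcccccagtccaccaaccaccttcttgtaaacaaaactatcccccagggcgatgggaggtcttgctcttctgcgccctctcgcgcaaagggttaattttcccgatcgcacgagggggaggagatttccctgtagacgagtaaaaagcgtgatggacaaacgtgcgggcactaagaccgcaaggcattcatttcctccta

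The SRE-like core was in 5 of the 15 member promoters (33.3%), from Srebf1, Fasn, Me1 and 2 starts of Insig2, and in 16.2% of all 32851 promoters of that length. The CCAAT box was in 8 of the 15, against 37.4% of all promoters, and the GC box in 7 of the 15, against 35.7%. In Fasn 1 CCAAT match overlaps the same motif on the other strand. The E-box was in 1 of the 15, a start of Mlxipl, against 7.15% of all. A match of letters is a description of these windows, not a binding site. The counts are per gene, so use of alternative starts could not be told apart.

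Across the whole table, recovered reads ranged from 10176617 to 12558179 in IR columns and from 10716890 to 12763837 in sham columns, and 9630 of the 12686 genes tested (75.9%) differed between surgeries. The test was limma on log2(normalized count + 1) with Benjamini-Hochberg adjustment over all tested genes and a threshold of 0.05. With a background this large, a call for a single gene says little on its own. Sizes are therefore given beside most named genes, and ranges for the members and some others. Where no range is given, the groups overlapped for some genes, among them Usf1, Irs1 and Pgd. The columns also differed in ways that the labels do not describe. Among IR columns, IR3, IR6 and IR9 held Xist reads (2312 to 4305 normalized counts) with at most 1.84 summed over 4 Y-linked genes, IR1, IR2, IR4 and IR7 held Y-linked reads (734 to 1034) with at most 11.5 of Xist, and IR5 and IR8 held both. All 9 sham columns held Xist reads (1751 to 5335) with at most 2.07 of the Y-linked genes. Sex-linked reads therefore move in part with surgery, and each comparison of levels was repeated with only the 3 Xist-only IR columns against the 9 sham columns. Of 9 hepatocyte markers, 8 fell and Hnf4a rose (log2 0.72), and their summed level was 558696 to 907736 in IR columns, against 2069360 to 2535200 in sham columns. Most of it was Alb, in keeping with the label of liver, at 329683 to 687471 in IR columns and 1621090 to 1968870 in sham columns. In bulk liver, fewer cells of a type and less RNA per cell cannot be told apart.

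Transcripts of the fatty acid synthesis enzymes were lower after IR at every step covered by the members. Of the 10 genes, 8 fell, namely Srebf1 and the 7 enzymes, and 37.6% of all tested genes fell. Insig2 rose, as did 38.3% of all tested genes, and Mlxipl did not pass the test. The median log2 difference of the 10 was −1.27, beside 0.02 over all genes tested and −1.39 over the 9 hepatocyte markers. In 7 of the 8 genes that fell, all but Fasn, every IR column lay below every sham column, which was so for 20.3% of tested genes. Insig2 was higher in every IR column than in any sham column, which was so for 19.9% of tested genes. Scaling to equal column totals, tried after seeing the data, split the calls over all genes into 5945 higher and 3695 lower, in place of 4855 and 4775, and the members again into 1 and 8. With the 3 Xist-only IR columns the same counts were found, 8 lower and 1 higher, where 35.0% of 12557 tested genes were lower and 33.0% were higher.

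**Figure D1:**
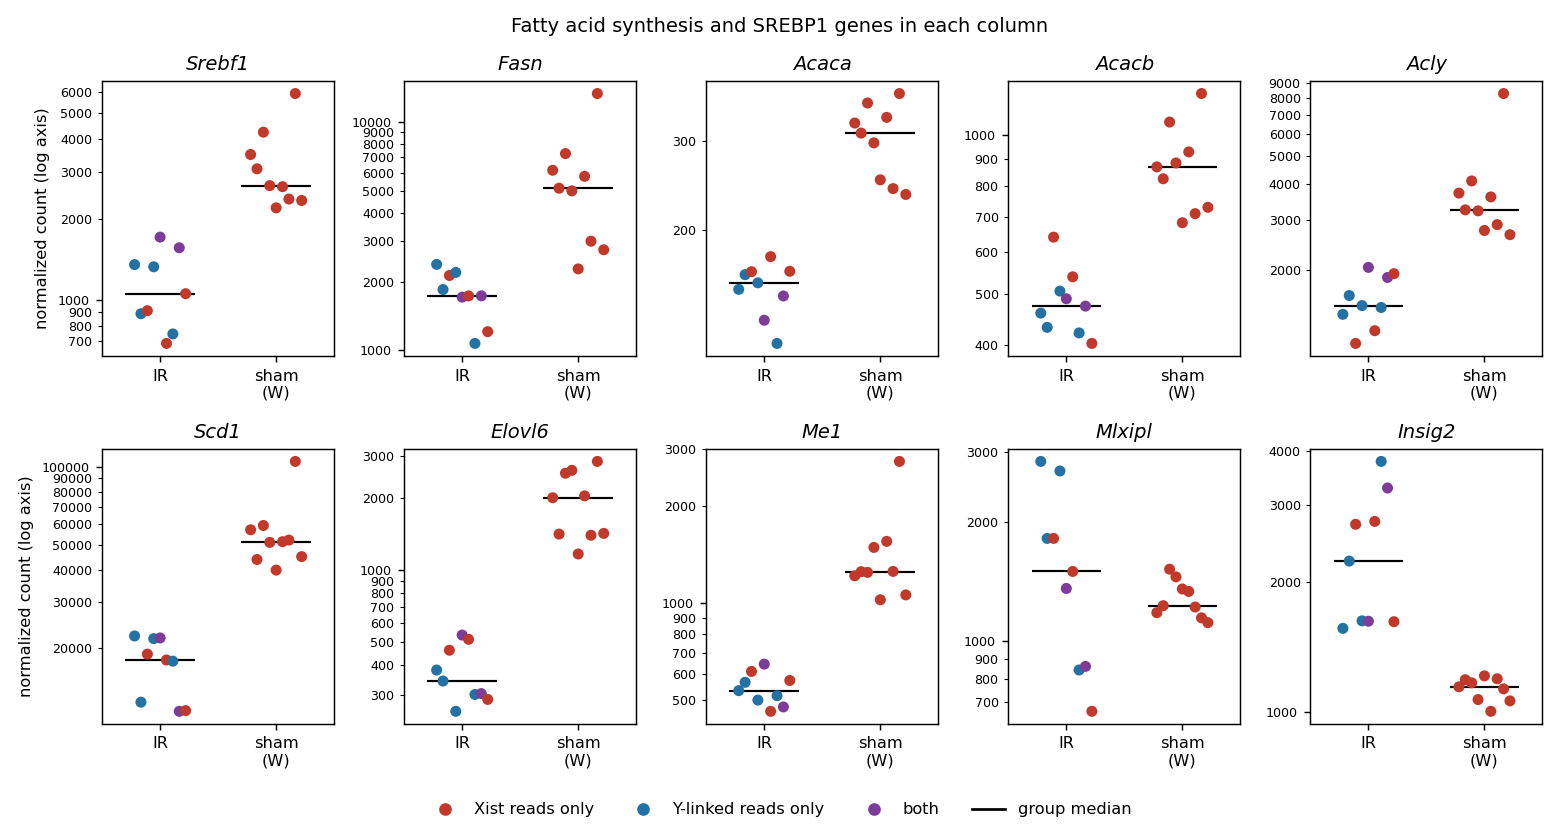
Normalized count of each of the 10 genes in each column on a log axis, with IR on the left and sham on the right, colour for the sex-linked reads of the column and a line at the group median. The points of Srebf1 and 6 of the enzymes separate by surgery, those of Fasn overlap in 1 IR column, Mlxipl spreads to both sides of the sham values, and every Insig2 value in IR lies above the sham values.

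Srebf1 encodes SREBP-1, the transcription factor that switches on the lipogenic enzymes, and lies on chromosome 11 (ENSMUSG00000020538, GRCm38, from 60199089 to 60222581, minus strand). Its normalized count was 686 in the lowest IR column, 1053 at the median and 1715 in the highest, against 2207, 2673 and 5910 in sham columns. The groups did not overlap, with IR5 and IR8 the highest among IR columns and W8 the highest of all. The log2 difference was −1.50 ± 0.20 (SE, n = 9 each; limma adjusted p = 1.4e-06), or 2.82-fold lower. Xist-only IR columns gave −1.82 (adjusted p = 1.5e-05).

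Acly, ATP-citrate lyase, supplies the acetyl-CoA (ENSMUSG00000020917, chromosome 11, from 100476353 to 100528000, minus strand). It had 1109, 1505 and 2046 normalized counts in the lowest, median and highest IR columns, against 2663, 3252 and 8296 in sham columns. No IR column reached the lowest sham column, and W8 stood apart from the other sham columns, of which the highest had 4104. The log2 difference was −1.21 ± 0.18 (SE; limma adjusted p = 3.6e-06).

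Acetyl-CoA carboxylase has 2 genes with separate roles, ACC1 from Acaca making malonyl-CoA for synthesis in the cytosol and ACC2 from Acacb making it at the mitochondrion, where it restrains fatty acid import. Acaca (ENSMUSG00000020532, chromosome 11, from 84129672 to 84401651, plus strand) had 119, 157 and 177 normalized counts at the lowest, median and highest in IR, against 235, 311 and 373 in sham. Acacb (ENSMUSG00000042010, chromosome 5, from 114146535 to 114250761, plus strand) had 402, 474 and 640 in IR, against 682, 871 and 1202 in sham. Both genes separated the groups completely, and they had the smallest differences among the 8 that fell. The log2 difference was −0.97 ± 0.10 for Acaca and −0.85 ± 0.11 for Acacb (SE; limma adjusted p = 3.3e-08 and 6.4e-07). The difference in their ratio did not pass the test: log2 Acacb over Acaca averaged 1.65 ± 0.22 in IR and 1.53 ± 0.10 in sham columns (SD, n = 9 each), a difference of 0.12 (exact two-sided permutation test, adjusted p = 0.19 over 4 ratios). Without IR9 it was 0.17 and passed (exact permutation, adjusted p = 0.038).

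Fasn, fatty acid synthase, was the member with the widest spread in sham livers (ENSMUSG00000025153, chromosome 11, from 120805846 to 120824547, minus strand). Its normalized count was 1072, 1732 and 2378 at the lowest, median and highest in IR, against 2273, 5126 and 13320 in sham. Here the groups overlapped, since IR1 exceeded the lowest sham column, W5, while the other 8 IR columns lay below all sham columns. The log2 difference was −1.51 ± 0.27 (SE; limma adjusted p = 4.4e-05) with all IR columns and −1.58 (adjusted p = 0.0058) with the Xist-only ones.

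Me1, cytosolic malic enzyme and a source of NADPH (ENSMUSG00000032418, chromosome 9, from 86581371 to 86695953, minus strand), had 461, 534 and 646 normalized counts in the lowest, median and highest IR columns, against 1023, 1250 and 2746 in sham columns. The IR columns lay close together, at 1.40-fold from lowest to highest, and all were below the sham range. The log2 difference was −1.33 ± 0.14 (SE; limma adjusted p = 3.7e-08).

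Scd1 and Elovl6 modify the finished chain and had the largest differences of the 10. Scd1, the liver's main stearoyl-CoA desaturase (ENSMUSG00000037071, chromosome 19, from 44394455 to 44407879, minus strand), had 11370, 17931 and 22207 normalized counts in IR columns (lowest, median, highest), against 39848, 51280 and 104630 in sham columns. Elovl6, the elongase that extends palmitate to stearate (ENSMUSG00000041220, chromosome 3, from 129532355 to 129638495, plus strand), had 257, 345 and 536, against 1168, 2006 and 2844. For each gene, all 9 IR columns lay below the sham range, and for Elovl6 the highest IR column was still under the lowest sham column by a wide margin. Scd1 fell by 1.69 on the log2 scale (SE 0.18, limma adjusted p = 4.3e-08), or 3.22-fold. Elovl6 fell by 2.34 (SE 0.19, limma adjusted p = 7.0e-10), or 5.06-fold, and 2.52% of all tested genes had a difference as low. The difference in the ratio of desaturase to synthase did not pass either: log2 Scd1 over Fasn averaged 3.27 ± 0.42 in IR and 3.45 ± 0.49 in sham columns (SD, n = 9 each; exact two-sided permutation test, adjusted p = 0.41), and the difference was −0.18.

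**Figure D2:**
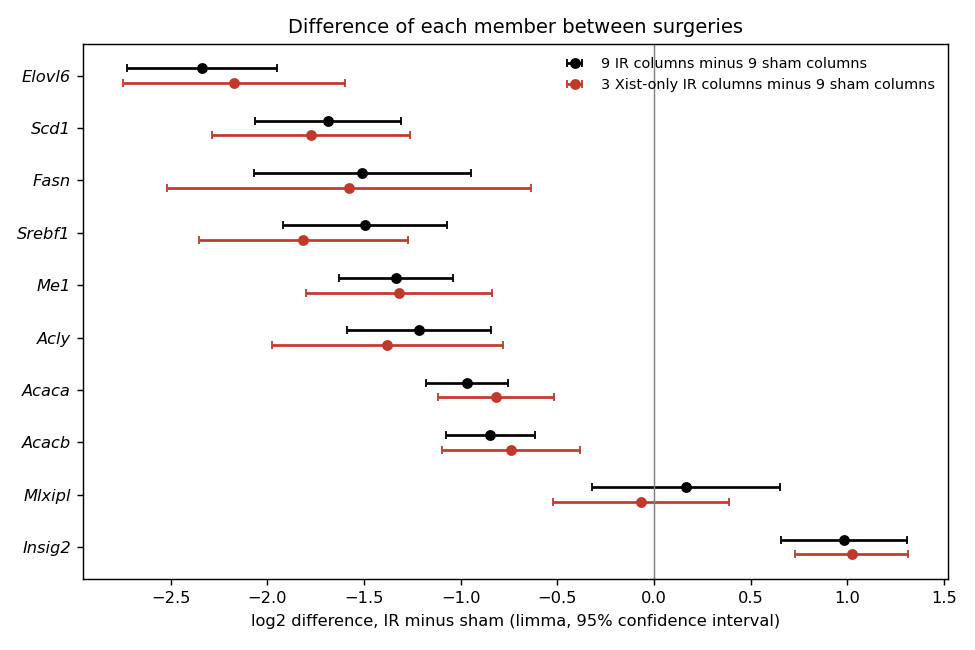
Log2 difference of each gene, IR minus sham, with its 95% confidence interval from limma, for all 9 IR columns (black) and for the 3 Xist-only IR columns (red). Intervals of 8 genes lie below 0 in both fits, that of Insig2 lies above 0, and that of Mlxipl includes 0.

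Mlxipl encodes ChREBP, the glucose-responsive partner of SREBP-1 in driving lipogenesis (ENSMUSG00000005373, chromosome 5, from 135089890 to 135138382, plus strand). It was the member whose level varied most among IR livers. Its normalized count was 662, 1497 and 2844 at the lowest, median and highest in IR, against 1111, 1226 and 1517 in sham. IR1, IR2, IR3 and IR4 lay above every sham column and IR7, IR8 and IR9 below every one. The SD of the log2 values was 0.74 in IR and 0.16 in sham columns, beside medians of 0.33 and 0.22 over all tested genes. The mean difference was 0.16 on the log2 scale (limma adjusted p = 0.53). Its 95% interval, from −0.32 to 0.65, leaves room for a shift in either direction. It was −0.07 with the Xist-only IR columns (adjusted p = 0.80). Columns below the sham range occurred with each kind of sex-linked reads: the lowest was 662 among Xist-only IR columns, 843 among Y-linked-only ones and 861 among those with both. Columns above it did not: IR1, IR2 and IR4 were Y-linked-only and IR3 was Xist-only. The medians were 1497 among Xist-only IR columns, 2252 among Y-linked-only ones and 1108 among those with both. Whether Mlxipl differs between these kinds was not tested.

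The ratio of the ChREBP gene to the SREBP-1 gene was higher after IR. Log2 Mlxipl over Srebf1 averaged 0.39 ± 0.82 in IR and −1.26 ± 0.50 in sham columns (SD, n = 9 each), and 8 of 9 IR columns were above every sham column. The difference of 1.66 had p = 8.2e-05 in an exact two-sided permutation test (adjusted p = 0.00016 over 4 ratios). Srebf1 was lower in every IR column, whereas Mlxipl did not pass the test, as given above. The difference in the ratio combines those of the 2 single genes, so the ratio and its p are no further evidence.

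Insig2 encodes an endoplasmic reticulum protein that retains the SCAP and SREBP complex (ENSMUSG00000003721, chromosome 1, from 121304353 to 121332589, minus strand). It was the member that rose. Its normalized count was 1563, 2233 and 3790 at the lowest, median and highest in IR, against 1006, 1146 and 1214 in sham. Every IR column was above the sham columns, with IR7 and IR8 the highest, and the sham values lay within 1.21-fold of each other. The log2 difference was 0.98 ± 0.16 (SE; limma adjusted p = 9.2e-06), or 1.98-fold higher, and 1.02 with Xist-only IR columns (adjusted p = 7.6e-06). The SD of its log2 values was 0.50 in IR and 0.09 in sham columns, and 74.2% and 3.5% of tested genes had an SD as low or lower in the same group.

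Its paralogue Insig1, a direct SREBP target in hepatocytes, went the other way. Insig1 had 607, 1662 and 2023 normalized counts at the lowest, median and highest in IR, against 2732, 5115 and 5935 in sham, and fell by 1.69 on the log2 scale (SE 0.20, limma adjusted p = 1.6e-07). Log2 Insig2 over Insig1 averaged 0.61 ± 0.73 in IR and −2.07 ± 0.36 in sham columns (SD, n = 9 each). All 9 IR columns were above every sham column, and the difference was 2.68. The exact two-sided permutation test gave p = 4.1e-05, the smallest that 9 against 9 columns can give (adjusted p = 0.00016). Since Insig2 was higher and Insig1 lower in every IR column, this separation and its p followed from the single genes. They are no further evidence.

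Per kilobase of exon, Scd1 was the most abundant of the 10 transcripts in both groups, with a mean level of 3530 normalized counts per kb in IR and 11441 in sham. In IR columns Insig2 came next at 679, above Acly in all 9 columns, and then Acly (300), Mlxipl (289), Srebf1 (202), Fasn (162) and Me1 (141), whose neighbours' ranges overlapped from Acly to Me1. Elovl6 (58.7) and Acacb (50.3) overlapped as well, and Acaca was lowest at 8.99. In sham columns the order after Scd1 was Acly (726), Srebf1 (572), Fasn (514), Me1 (370), Insig2 (326), Elovl6 (301) and Mlxipl (231), each overlapping the next in range, with Acacb (91.1) and Acaca (17.8) separate below them. Insig2 thus held rank 2 in IR and rank 6 in sham columns. Acaca held the lowest level per kb in both.

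**Figure D3:**
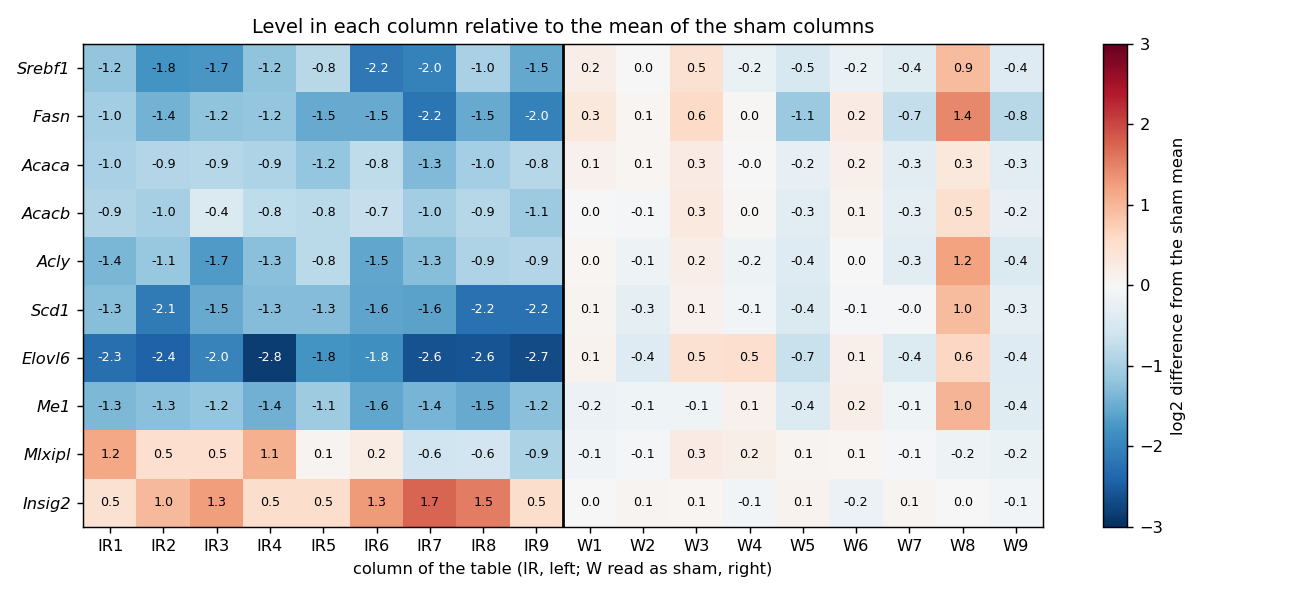
Log2 level of each gene in each column minus the mean of the 9 sham columns, IR columns to the left of the line and sham columns to the right, blue for lower and red for higher. The first 8 genes are blue in every IR column, Elovl6 most deeply, Insig2 is red in every IR column, Mlxipl shows both colours, and W8 is red for Srebf1, Fasn, Acly, Scd1 and Me1.

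Srebf1 and 5 of the enzymes varied together among sham livers, and no such relation passed among IR livers. Over the 9 IR columns, Pearson's r of log2 levels with Srebf1 ran from −0.52 for Insig2 (Spearman's rho −0.48) to 0.61 for Acly (rho 0.58), with adjusted permutation p = 0.30 and 0.19 for r and a lowest unadjusted p of 0.082. Over the 9 sham columns, r with Srebf1 was 0.935 for Acly (rho 0.93), 0.93 for Fasn (rho 0.95), 0.91 for Acacb (rho 0.83), 0.89 for Scd1 (rho 0.77) and 0.84 for Acaca (rho 0.85). These 5 passed a permutation test of r adjusted over the 18 relations computed, with adjusted p from 0.00074 for Fasn to 0.011 for Acaca. By rho, Fasn, Acly, Acaca and Acacb passed (adjusted p = 0.0063, 0.0067, 0.036 and 0.037, permutation) and Scd1 did not (0.077). Elovl6 (r = 0.74, rho 0.73), Me1 (r = 0.74, rho 0.48), Insig2 (r = 0.11, rho −0.13) and Mlxipl (r = −0.08, rho 0.02) did not pass. Without W3 and W8, the 2 sham columns farthest from the Srebf1 median, r was 0.86 for Fasn, 0.83 for Acly and 0.79 for Acaca, but 0.69 for Acacb and 0.56 for Scd1, and none passed with 7 columns left (adjusted p from 0.20 to 0.62, permutation). The unadjusted permutation p was then 0.014 for Fasn, 0.022 for Acly, 0.038 for Acaca, 0.095 for Acacb and 0.21 for Scd1. Whether the correlations differ between surgeries was not tested, and the kinds of sex-linked reads among IR columns were too few for an r of their own.

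**Figure D4:**
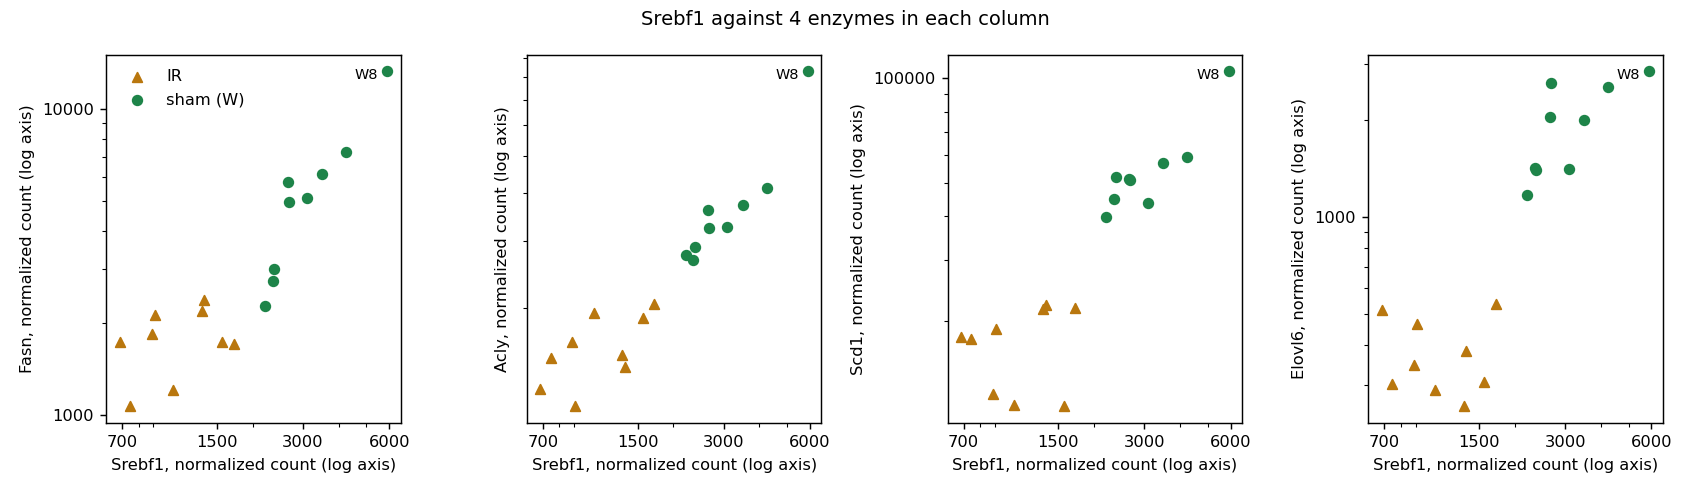
Normalized count of Fasn, Acly, Scd1 and Elovl6 against that of Srebf1, each point 1 column and both axes logarithmic, triangles for IR and circles for sham. IR columns sit at the lower left with no relation that passed the test. Sham columns climb with Srebf1 up to W8 at the top right. There r passed for Fasn, Acly and Scd1 but not for Elovl6, and for none of them without W3 and W8.

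Some genes outside the 10 varied with them once the difference between surgeries was taken out. After each surgery's mean was removed, the 5 non-member genes whose log2 level was most correlated with the members' mean z-score over the 18 columns were Slc25a44 (r = 0.90), Shroom1 (0.89), Samm50 (0.85), Mid1ip1 (0.85) and Akt2 (0.84). Among members the same r ran from 0.96 for Fasn to 0.28 for Mlxipl and −0.11 for Insig2. Members enter the score, so their values are a description. The 5 others were picked for the highest r among all tested genes. Their r was not computed within IR or sham columns alone. Nor was it computed without W8, which stood apart from the other sham columns for Fasn, Acly, Scd1 and Me1. Between surgeries these followers moved differently from each other: Mid1ip1, an activator of acetyl-CoA carboxylase, fell (log2 −1.86), as did Slc25a44, a mitochondrial carrier of branched-chain amino acids (−0.39), whereas Shroom1 rose by 1.08 and the insulin-signalling kinase gene Akt2 rose by 0.38 (limma adjusted p at most 0.00059). Samm50, of the mitochondrial outer membrane assembly machinery, did not pass (log2 −0.06, adjusted p = 0.51).

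The other genes that feed or extend the synthesis route moved mostly downward. Of 22 genes for fatty acid supply and modification, 13 fell, 3 rose and 6 did not pass, with a median log2 difference of −0.50. Over all tested genes 37.6% fell and 38.3% rose. Thrsp, whose product Spot 14 promotes lipogenesis, had 181, 455 and 2226 normalized counts at the lowest, median and highest in IR, against 6984, 13393 and 32871 in sham. No IR column came near the sham range, and Thrsp fell by 4.79 on the log2 scale (SE 0.44, limma adjusted p = 1.3e-08). Pnpla3, an SREBP-1-driven lipid droplet protein, had a log2 difference of −3.47 and Acss2, which makes acetyl-CoA from acetate, one of −2.86 (limma adjusted p = 2.0e-07 and 6.0e-09). The genes that rose were Pgd (log2 1.40) and G6pdx (0.75), the NADPH-producing dehydrogenases of the pentose phosphate pathway, and the elongase gene Elovl1 (0.49). For G6pdx the groups overlapped, and its adjusted p was 0.011 with all IR columns and 0.056 with the Xist-only ones (log2 0.70).

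Triglyceride assembly and lipid droplet genes moved in both directions. Of 16 tested, 7 rose and 8 fell, with a median of −0.27. A division of this kind was also seen over all tested genes, of which 38.3% rose and 37.6% fell. The largest rises were in 3 genes of lipid droplet proteins, Cidec (log2 4.20), Plin2 (1.86) and Plin5 (1.03). Plin2 had 7363, 15549 and 36920 normalized counts at the lowest, median and highest in IR, against 4071, 4660 and 6271 in sham, with no overlap. The largest falls were in Lpin1, a phosphatidate phosphatase (log2 −1.82), Gpam, the mitochondrial acyltransferase that starts glycerolipid synthesis (−1.36), and Acsl1, a long-chain acyl-CoA synthetase (−1.18). Neither role moved one way only, as 4 genes named after their values were seen show: the acyltransferase genes Agpat2 (0.39), Agpat3 (0.38) and Dgat1 (0.38) rose, and Cideb, of a lipid droplet protein, fell (−0.99; limma adjusted p from 0.00014 to 0.024). With the Xist-only IR columns Agpat2 (0.38, adjusted p = 0.076) and Dgat1 (0.20, adjusted p = 0.068) did not pass. As a check on adipose tissue, 5 of 9 adipocyte markers were under the filter, with Lep at 0 in every column and Adipoq at most 1.05 in IR and 9.32 in sham columns. Plin4, Fabp4 and Lipe from that list rose, but Lipe did not pass with the Xist-only IR columns (log2 0.21, limma adjusted p = 0.25).

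Genes that control SREBP processing were divided. Of 10, 5 rose and 2 fell, with a median of 0.16, where 38.3% of all tested genes rose and 37.6% fell. Sik1, a salt-inducible kinase, rose by 1.61, Crtc2, a CREB coactivator, by 1.08 and Srebf2, the SREBP gene for cholesterol synthesis, by 0.92. Insig1 fell, as above, and so did Rnf139, an endoplasmic reticulum ubiquitin ligase (log2 −1.12). Of 12 SREBP2 cholesterol genes, 6 fell and 6 did not pass, with a median of −0.71. Among them were Stard4, a sterol carrier (log2 −2.39), and Idi1, an isoprenoid isomerase (−1.85).

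Upstream regulators showed no common direction. Of 22 lipogenic regulators, 7 rose, 5 fell and 10 did not pass, with a median of 0.03. Among all tested genes 38.3% rose and 37.6% fell. The insulin receptor substrates moved apart, with log2 differences of 1.21 for Irs2 and −0.74 for Irs1. Usf1 and Rxra, transcription factors that act on lipogenic promoters, rose by 0.58 and 0.54, while Prkaa2, a catalytic subunit of AMPK (−1.23), and Ppargc1b, a coactivator of SREBP-1 (−1.12), fell. Of 13 genes for glucose entry or regulated by ChREBP, 8 fell and 4 rose, with a median of −1.03. Slc2a2, the hepatocyte glucose transporter, had 488, 784 and 1276 normalized counts at the lowest, median and highest in IR, against 4982, 6637 and 7109 in sham, and its log2 difference was −3.08 (SE 0.15, limma adjusted p = 3.6e-13). Pklr, liver pyruvate kinase and a ChREBP target, fell too (−1.87). Fgf21, a secreted hormone, rose by 2.34, Gpd1 by 0.73 and Arrdc4 by 0.67. Arrdc4 had a limma adjusted p of 0.031, and of 0.065 without IR8 (log2 0.55).

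**Figure D5:**
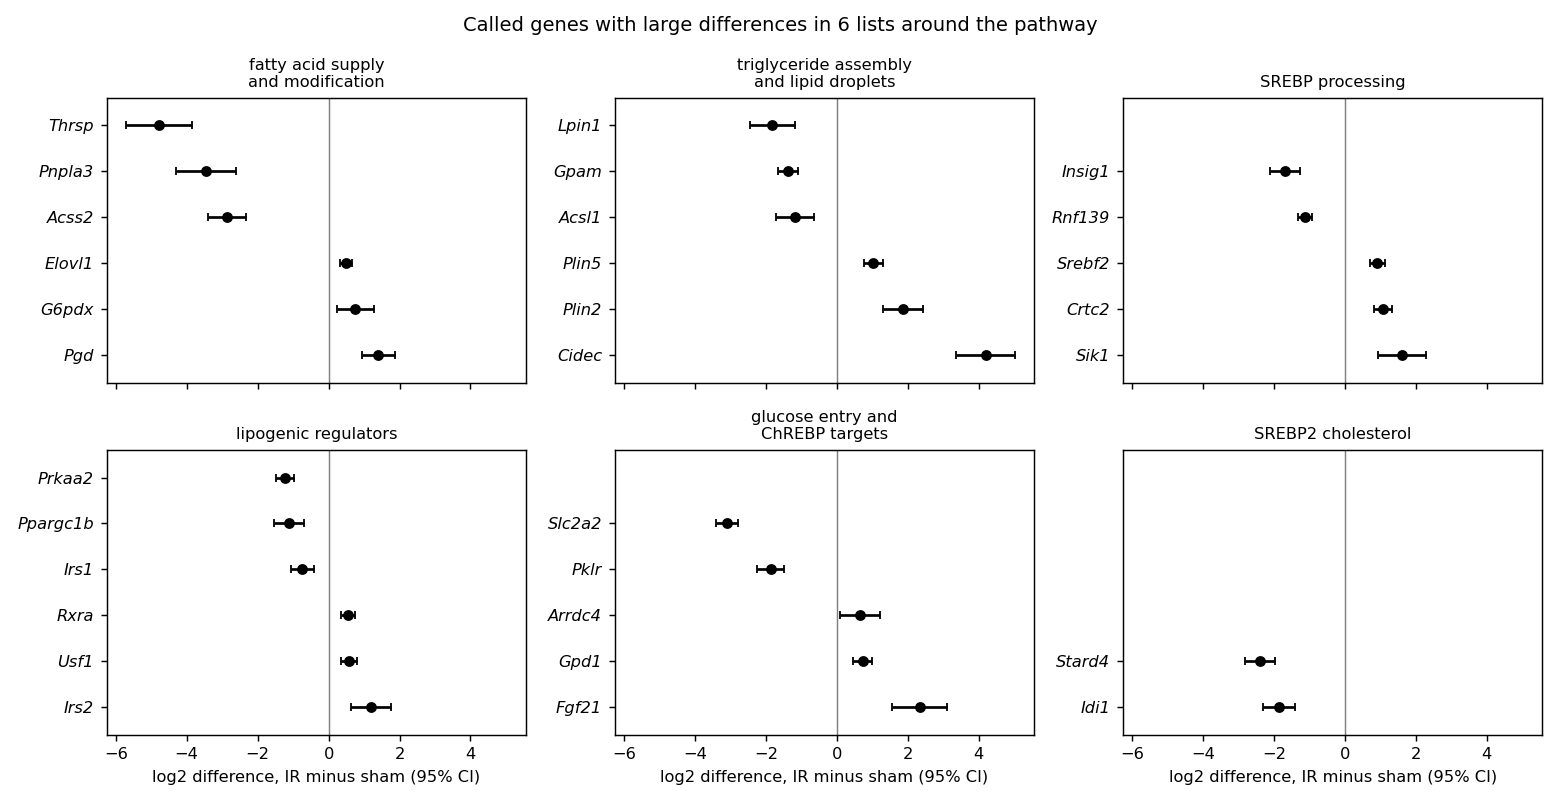
Log2 difference, IR minus sham, with its 95% confidence interval from limma, for called genes with large differences in each direction in 6 lists around the pathway. Thrsp, Pnpla3 and Slc2a2 lie farthest to the left and Cidec farthest to the right, and only genes that fell appear in the SREBP2 cholesterol list.

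Markers of other cells and the clock moved with surgery beside these results. The counts below from all IR columns stand beside 38.3% of all tested genes that rose and 37.6% that fell. All 9 tested neutrophil markers rose, their sum with Ly6g running from 396 to 4596 normalized counts in IR, against 72.4 to 144 in sham columns. Of 6 Kupffer cell markers 5 fell and 1, Marco, rose, of 5 lymphocyte markers 5 fell, of 7 endothelial markers 4 fell and 1 rose, of 8 stellate markers 4 fell and 4 rose, of 8 monocyte and macrophage markers 4 fell and 3 rose, and of 5 cholangiocyte markers 4 rose. Of 5 erythroid markers 1 fell, and of 8 pancreas markers 1 was tested and fell, with 4 at 0 in every column. With the Xist-only IR columns, 3 of 7 endothelial, 2 of 5 erythroid and 2 of 2 tested pancreas markers fell, where 35.0% of tested genes fell. In that fit 3 of 8 stellate, 2 of 8 monocyte and macrophage and all 7 tested neutrophil markers rose, where 33.0% of tested genes rose. All 12 genes of a clock list, chosen after seeing the data, differed, where 75.9% of all tested genes did. Dbp, a clock output gene, had 8.81 to 88.6 normalized counts in IR columns, against 941 to 1688 in sham columns. Arntl had 119 to 223, against 5.11 to 23.0. The 12 genes kept their directions with the Xist-only IR columns, 5 higher and 7 lower. The list leaves out Nr1d1 and Bhlhe40, clock genes counted above among the lipogenic regulators. Neither passed with all IR columns (log2 0.07 and −0.08, limma adjusted p = 0.76 and 0.80). With the Xist-only IR columns Bhlhe40 was lower (−0.61, limma adjusted p = 0.0074) and Nr1d1 did not pass (−0.08, 0.74). The part of cell makeup and of the clock in the differences of the 10 genes was not tested.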

How the data were processed

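Liver RNA was extracted with Trizol and made into libraries with an Illumina kit from NEB, per the labels' protocols. Trimmomatic 0.33, STAR 2.5.0a and DESeq2 1.14 are named with GRCm38 in the submitters' processing notes. Neither the labels nor those notes name the read counter, its annotation or the use of strand, so overlapping antisense transcripts cannot be told apart. By its name, the deposited table holds a normalized signal per gene, that is, counts after the authors' scaling by DESeq2. Rescaling each column by its own factor gave whole reads for 100% of values within 0.001 in each column. For W1 the factor, 1.009, was close to 1, so rescaling changed its values little.

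Identifiers were paired with symbols by GENCODE vM21 (47224 of 47729). The 9 IR and 9 W columns were compared with limma 3.58.1 in R 4.3.3 on log2(normalized count + 1), after a filter at a mean of 10, so fold changes of low genes are understated. Ratios and correlations used permutation tests in SciPy 1.17.1. Alternatives were other pseudocounts, filters, scalings and weights, a replicate block, leaving out each column, and edgeR 4.0.16 and DESeq2 1.42.0 on the recovered reads, rounded to whole numbers, which called 9691 and 9722 genes. The Xist-only comparison, the one without IR5 and IR8, and equal column totals were chosen after seeing the data. The test was checked on simulated counts in which few genes were changed and all shared the same dispersion. Most genes differed in these data, so that check does not cover this setting.

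The members and lists were chosen with earlier results of these data known. Genes named beyond the members are, per pathway list, the called genes with the largest differences, at most 3 in each direction, Insig1, the 5 genes most like the members, and markers at 0 or called; some genes that this rule names are not reported here. Columns were called Xist-only with at least 100 Xist counts and under 10 Y-linked counts. No sample was assigned a genotype.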

Additional observations from a re-analysis of the deposited data

Results flagged for a closer look

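In groups of 9 columns, a value was singled out when its gap to the nearest other column was large for the range of the group. For independent, normally distributed values chance does this in about 1 in 20 groups, or 4.2 of the 84 combinations of gene and group examined. In all, 14 were found, 8 of them in sham column W8. The values were normalized counts, not log2 levels, and the genes share columns and can vary together. The 14 are therefore a description and cannot be read as an excess over 4.2.

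In W8, 4 of the synthesis genes stood far above the other sham columns. Its normalized count was 13320 for Fasn, where the next sham column had 7268, and 8296 for Acly, where the next had 4104. Scd1 reached 104630 in W8, with 59230 next, and Me1 reached 2746, with 1552 next. W8 was also the highest sham column for Pgd (813), Pklr (4747) and Usf1 (245) and the lowest for Stard4 (1413). Without W8 the counts of members that fell and rose were still 8 and 1.

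The other values that stood apart were Acsl1 at 5939 in IR1, Fgf21 at 165 in IR9 and at 57.2 in sham column W2, Irs2 at 765 in IR8, Irs1 at 96.3 in sham column W3 and Prkaa2 at 618 in sham column W4.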

How the results depend on the processing

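The counts of 8 members that fell and 1 that rose were found under every alternative run, and the counts of all genes called moved by less than 1.5 times. Mlxipl was −0.066 (log2) with the Xist-only IR columns, against 0.16 with all, and passed under no setting. Over the alternatives its adjusted p ran from 0.068 to 0.87. Scaling to equal column totals moved the median of all genes to 0.25, as the only scaling to move it by over 0.1; with it Insig2 and the 8 lower members kept their directions, 2 SREBP2 cholesterol genes were called higher, and 3 lipogenic regulators lower, against 5. Quantile scaling called 1 SREBP2 cholesterol gene higher. The numbers in the headers do not pair columns: r of same-numbered columns ran from −0.10 to 0.12 over 9 pairs, and with a replicate block 4818 genes were higher and 4737 lower, with 8 and 1 members as before.

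Leaving out 1 column at a time, log2 Acacb over Acaca differed by 0.085 to 0.17 and passed without IR9 only (0.17, exact permutation, adjusted p = 0.038). Arrdc4 missed the threshold without IR8 (log2 0.55, limma adjusted p = 0.065), without IR5 and IR8 (0.29, 0.073) and with no filter (0.67, 0.067), and G6pdx with Xist-only IR columns (0.70, 0.056) and without IR5 and IR8 (0.59, 0.051).

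Without the 2 columns farthest from the Srebf1 median, r with Srebf1 changed sign among IR columns for Acaca (0.31), Acacb (0.084) and Me1 (−0.57), and among sham columns for Insig2 (−0.0070). It was no longer past the threshold among sham columns for Fasn (0.86), Acaca (0.79), Acacb (0.69), Acly (0.83) and Scd1 (0.56), with 7 columns left. The cause of these changes was not tested.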

Other observations

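Elovl3, an elongase of very long chains named here after its values were seen, differed among IR columns more than any synthesis gene described above did. It had 6.87 to 18.6 normalized counts in the 3 Xist-only IR columns, 351 to 1123 in the 4 Y-linked-only ones and 110 and 473 in the 2 with both, against 23.0 to 58.0 in sham columns. With all IR columns it did not pass the test (log2 1.73, limma adjusted p = 0.096), and with the Xist-only IR columns it was lower than sham (log2 −1.78, adjusted p = 2.9e-05). By the same grouping, Thrsp had 181 to 331 normalized counts in Xist-only IR columns, 236 to 812 in Y-linked-only ones and 1488 and 2226 in those with both, and Srebf1 had 686 to 1053, 745 to 1353 and 1565 and 1715. IR5 and IR8, the columns with both kinds of reads, were the highest IR columns for Srebf1 and Thrsp. The sources used here do not state whether any library was pooled.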
